A study of Mus musculus with 2 samples.

Results

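The miR-143 and miR-145 cluster was followed through small RNA libraries of mouse mesenchymal stem cell (MSC) lines that carry or lack Dicer. Its members were the hairpin genes Mir143 and Mir145a, 2 of the 2199 miRNA hairpins of the annotation. Reads of 18 nt or more were assigned to them when they lay within the hairpin, on its strand and without a mismatch, and were then split by arm, length, ends and untemplated tails. They took 971 of 6291599 reads in the Dicer -/- library and 405168 of 9943989 reads in the Dicer f/f library.

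The Dicer -/- line lacks Dicer, the RNase III enzyme that frees mature miRNAs from their precursor hairpins. The Dicer f/f line carries floxed alleles and is treated as wild type in the labels. Each is an immortalized line grown from 1 clone of bone marrow fibroblast-like cells of C57BL/6 mice, kept in alpha-MEM with fetal bovine serum and antibiotics and harvested close to confluence. The deleted exon, the way in which the allele was deleted and the meaning of the 2 at the end of the title of the Dicer -/- library are not stated in the labels.

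Each genotype had 1 library, so the differences have no replicate error and none was tested across libraries. Genotype, clone and library cannot be told apart. The intervals given are at 95% and cover counting error alone, because PCR copies without molecular identifiers are not independent molecules. RNA came from whole cultures, so fewer cells with an RNA and less of that RNA per cell cannot be told apart.

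miR-143 and miR-145 are made from a shared primary transcript. They are best known from smooth muscle, where serum response factor and its coactivator myocardin drive the locus and the miRNAs act on regulators such as Klf4, Klf5 and Elk1. They are also abundant in fibroblasts and other mesenchymal cells. Drosha cuts the primary transcript at the base of each hairpin and sets the 5′ end of the 5p arm and the 3′ end of the 3p arm, while Dicer cuts near the loop and sets the remaining pair of ends. The bases 2 to 8 from the 5′ end of a mature miRNA form the seed, so the 5′ end decides which targets are paired.

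Mir143 (ENSMUSG00000065445.3) lies on chromosome 18, minus strand, from 61649196 to 61649258 in GRCm38 and is 63 nt long. Mir145a (ENSMUSG00000065592.2) lies downstream of it on the same strand, from 61647825 to 61647894, is 70 nt long and is separated from it by 1301 nt. In GENCODE the annotated long noncoding RNA Carmn (61649625 to 61665537) ends 366 nt upstream of Mir143, so both hairpins are intergenic there. In RefSeq on GRCm38.p6 Carmn runs from 61645878 to 61665538 and spans both.

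Predicted folds of the annotated hairpins held 25 base pairs and a terminal loop of 6 nt in Mir143, between paired positions 28 and 35, and 24 base pairs and a loop of 13 nt in Mir145a, between paired positions 29 and 43. Positions are counted from 1 at the 5′ end of the hairpin. In the Dicer f/f library the commonest miR-143-5p ran from 6 to 27 (22 nt) and the commonest miR-143-3p from 40 to 60 (21 nt). The commonest miR-145a-5p ran from 7 to 29 (23 nt) and the commonest miR-145a-3p from 45 to 66 (22 nt). Paired as predicted, these forms left 3′ overhangs of 2 nt at the base and 3 nt at the loop in miR-143, and of 1 nt and 2 nt in miR-145a.

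miRNA hairpins took 136378 reads (2.17%) in the Dicer -/- library and 5925711 reads (59.6%) in the Dicer f/f library. A count of 0 allowed up to 0.477 and 0.302 CPM (counts per an equal library total, over all reads in a file). Fragments of Dicer1 that matched no other gene numbered 23 in Dicer -/- and 2 in Dicer f/f, and they do not check the genotype because the deleted exon is not stated. All 10 mesenchymal marker hairpins, the cluster included, had at least 100 Dicer f/f reads, and their sum was 32251 reads in Dicer -/- against 2113386 in Dicer f/f. The sums of other marker lists in the same order were 8 and 2240 reads for skeletal and cardiac muscle, 84 and 1335 for blood, 13 and 333 for endothelium and 285 and 37 for epithelium. Most Dicer f/f reads of muscle were Mir206 (1 and 2236) and of blood Mir155 (9 and 1299). Mir150 (2 and 16) and Mir133b (2 and 3) also had more reads in Dicer f/f. Mir142 (30 and 11), Mir223 (38 and 9), Mir144 (5 and 0), Mir133a-1 and Mir133a-2 (7 and 1 each) had more in Dicer -/-. Mir1a-1 and Mir1a-2 had 0 reads in both. In mRNA fragments, Col1a2, which encodes a chain of type I collagen, had 544 and 51 reads, while the mesenchymal markers Thy1 and Dcn had none. The part of these other cell type markers in the results below was not tested.

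All 4 arms had lower CPM in the Dicer -/- library, but by very different factors. miR-143-5p had 483 reads (76.8 CPM) in Dicer -/- cells against 5787 reads (582 CPM) in Dicer f/f cells, 7.58-fold lower (6.91 to 8.34; log2 ratio −2.92). Its partner miR-143-3p, the guide strand in most tissues, had 58 reads (9.22 CPM) against 34644 (3484 CPM), 378-fold lower (292 to 498; log2 ratio −8.56). The arms of 1 hairpin thus differed in their ratios by far more than counting error.

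In Mir145a the order of the arms was turned round. miR-145a-5p, the guide strand, had 356 reads (56.6 CPM) in Dicer -/- cells against 358563 reads (36058 CPM) in Dicer f/f cells, 637-fold lower (574 to 709; log2 ratio −9.32). miR-145a-3p, the passenger strand, had 74 reads (11.8 CPM) against 6174 (621 CPM), 52.8-fold lower (42.0 to 67.3; log2 ratio −5.72). In both hairpins the arm with more Dicer f/f reads had the lower ratio.

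**Figure D1:**
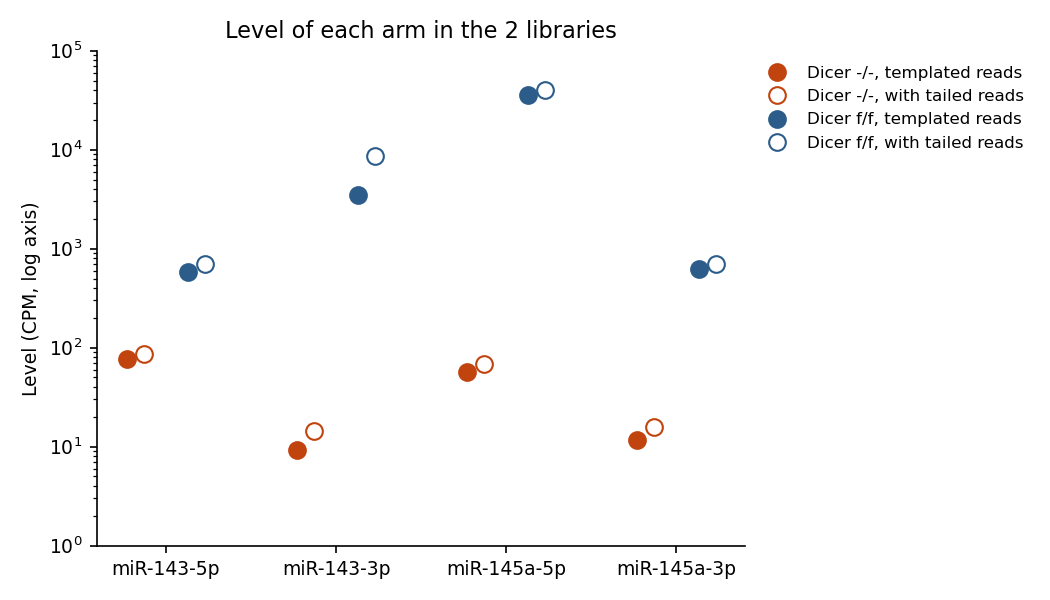
Level of each arm of miR-143 and miR-145a in CPM, on a log axis, in the Dicer -/- library and in the Dicer f/f library. Filled points are templated reads and open points include tailed reads. No interval is drawn. By templated reads, the 4 arms lie between 9.22 and 76.8 CPM in Dicer -/- and between 582 and 36058 CPM in Dicer f/f.

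Set against all miRNAs, the 4 arms did not stand apart from the rest by direction. All 4 arms were more than 2-fold lower in Dicer -/-, as were 89.8% of 295 miRNA species with at least 100 Dicer f/f reads (1 arm of 1 hairpin or of identical copies). More than 10-fold lower were 3 of the 4 arms and 75.6% of the species, and more than 100-fold lower were 2 of the 4 arms and 29.2% of the species. By ratio, 232 of the 295 species lay below miR-143-5p, 143 below miR-145a-3p, 61 below miR-143-3p and 49 below miR-145a-5p. miR-145a-5p ranked 57 among all miRNA species by reads in Dicer -/- and 4 in Dicer f/f.

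**Figure D2:**
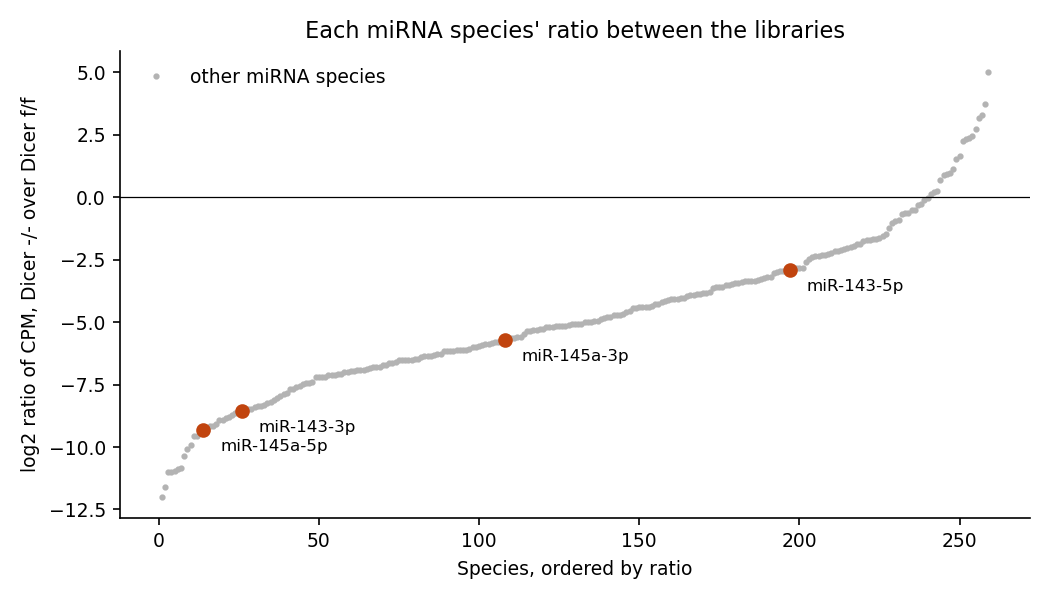
Log2 ratio of Dicer -/- over Dicer f/f (CPM) for 259 miRNA species with at least 100 Dicer f/f reads, ordered by ratio, with the 4 arms of the cluster marked. The other 36 of the 295 species had no Dicer -/- read and are not drawn. miR-143-5p sits among the less reduced species and miR-145a-5p and miR-143-3p among the more reduced ones.

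The species nearest to each arm, among those with at least 1000 Dicer f/f reads and by the difference of the log2 ratios over the 2 libraries, came from other loci. For miR-143-5p they were miR-18-5p (7.67-fold lower), miR-15b-5p (7.96-fold) and miR-148a-5p (7.22-fold). For miR-145a-5p they were miR-221-3p (632-fold lower), miR-29b-3p (652-fold) and miR-103-3p (568-fold). Nearest to miR-143-3p were miR-222-3p (375-fold lower), a 3p species shared by miR-466 copies and 2 predicted genes (393-fold, on 2 Dicer -/- reads) and miR-152-3p (362-fold), and nearest to miR-145a-3p were let-7a-5p (53.3-fold lower), miR-30c-5p (55.6-fold) and miR-185-5p (50.1-fold). Of other abundant mesenchymal miRNAs, miR-22-3p was 2028-fold lower in Dicer -/-, miR-125b-5p 92.7-fold, miR-199a-5p 11.6-fold and miR-21a-5p 9.04-fold, so the cluster's arms fell within the range of these 4 at every arm but miR-143-5p, which was less reduced than all of them.

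The balance between the hairpins differed between the libraries. In Dicer -/- cells Mir143 had 541 reads and Mir145a 430, a ratio of 1.26 (1.11 to 1.43). In Dicer f/f cells Mir143 had 40431 reads and Mir145a 364737, so that Mir145a had 9.02 reads for each Mir143 read. Mir143 took 0.397% of all miRNA reads in Dicer -/- and 0.682% in Dicer f/f, while Mir145a took 0.315% and 6.16%. The smaller share of Mir145a in Dicer -/- holds within the miRNA reads and does not rest on the library total.

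The balance between arms also differed. In Mir143, 3p reads were 0.120 times the 5p reads in Dicer -/- (0.0898 to 0.158) and 5.99 times in Dicer f/f (5.82 to 6.16), so the arm with most reads was not the same. At 18 to 23 nt the ratio was 0.0574 in Dicer -/- and 6.03 in Dicer f/f, and with tailed reads its log2 value was −2.57 in Dicer -/- and 3.63 in Dicer f/f. In Mir145a, 3p reads were 0.208 times the 5p reads in Dicer -/- (0.160 to 0.268) and 0.0172 times in Dicer f/f (0.0168 to 0.0177). The 5p arm was the larger there in both libraries.

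Unequal ratios within a cluster were common. The log2 ratios of Dicer -/- over Dicer f/f differed by 3.50 between Mir143 and Mir145a, and by a median of 2.31 (0.05 to 9.28) among 35 pairs of hairpins on 1 strand within 10000 nt, each with at least 1000 Dicer f/f reads. The pair of Mir143 and Mir145a stood at place 12 of the 35. The widest differences were those of Mir532 and Mir362 (9.28), Mir106b and Mir25 (6.75), and Mir532 and Mir501 (5.05). Pairs of 1 cluster share hairpins, so they are not independent.

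Read length separated the reads that carried the counts of each library. Of miR-145a-5p, 238 of 356 reads (66.9%; 61.7 to 71.7) were 24 nt or longer in Dicer -/- cells, against 15498 of 358563 (4.32%; 4.26 to 4.39) in Dicer f/f cells, of which 15459 were of 24 nt. Of miR-143-3p, 35 of 58 reads (60.3%; 46.6 to 73.0) were that long in Dicer -/- and 0 of 34644 in Dicer f/f, and of miR-145a-3p 42 of 74 (56.8%; 44.7 to 68.2) and 0 of 6174. miR-143-5p stood apart from these, with 82 of 483 reads (17.0%; 13.7 to 20.6) in Dicer -/- and 43 of 5787 (0.743%) in Dicer f/f.

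Over all other miRNAs, 74.1% of the reads in Dicer -/- and 2.75% in Dicer f/f were 24 nt or longer. Median lengths in Dicer -/- and Dicer f/f were 22 and 22 nt for miR-143-5p, 24 and 21 nt for miR-143-3p, 26 and 23 nt for miR-145a-5p, and 24.5 and 22 nt for miR-145a-3p. Only the median of miR-143-5p, among the 4 arms, was the same in both libraries.

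**Figure D3:**
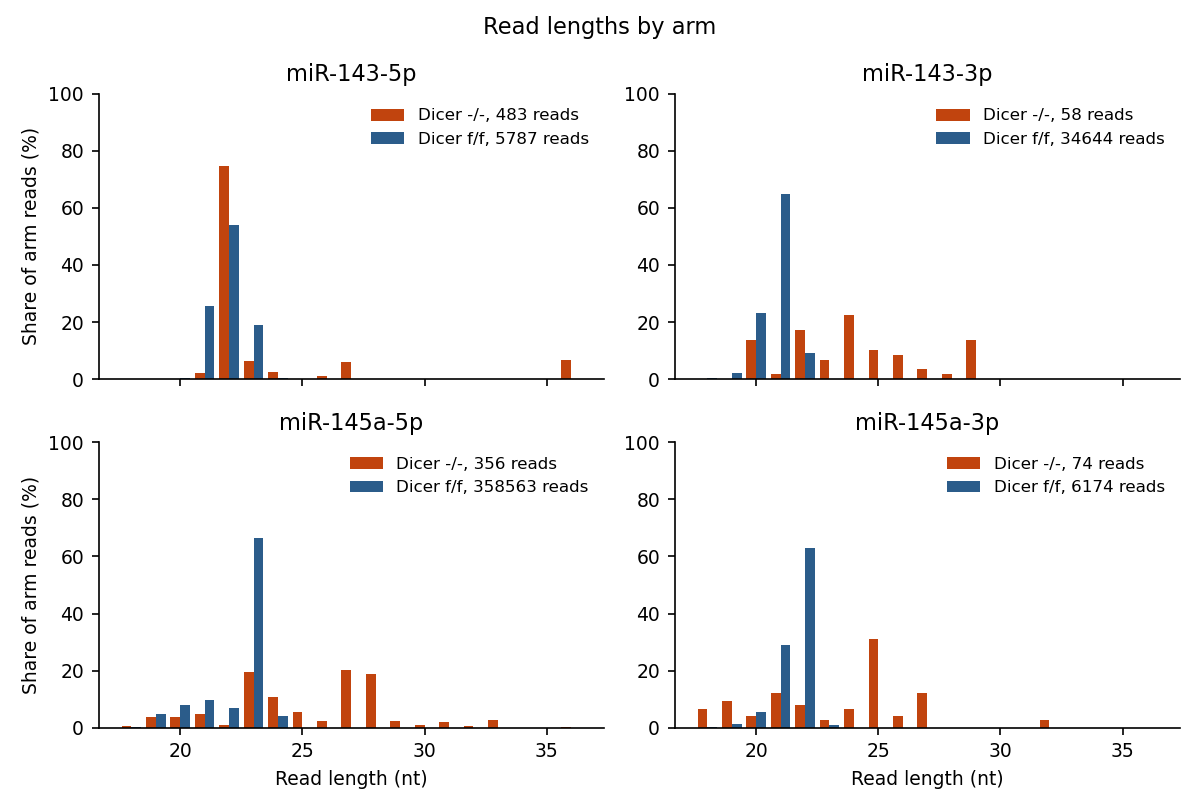
Length of the reads of each arm in nt against the percent of the arm's reads, in the Dicer -/- library and in the Dicer f/f library. Reads of 36 nt, the longest length sequenced, may stand for longer RNA. miR-143-5p peaks at 22 nt in both libraries, and miR-145a-5p has peaks at 23, 27 and 28 nt in Dicer -/- and 1 main peak at 23 nt in Dicer f/f.

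Within 18 to 23 nt, the length of mature miRNAs, the ratios were lower for every arm. miR-143-5p had 401 such reads in Dicer -/- and 5744 in Dicer f/f (9.06-fold lower), miR-143-3p 23 and 34644 (953-fold), miR-145a-5p 118 and 343065 (1839-fold) and miR-145a-3p 32 and 6174 (122-fold). In this window all 4 arms were more than 2-fold lower, against 96.1% of 283 species. More than 10-fold lower were 3 of the 4 arms, against 87.6% of the species, and more than 100-fold lower were the same 3 arms, against 42.4%. At 24 nt and longer, miR-143-5p was 3.01-fold higher in Dicer -/- (2.06 to 4.47), miR-143-3p at least 18.4-fold higher and miR-145a-3p at least 22.1-fold higher, with the bounds set against a floor of 3 reads in Dicer f/f. miR-145a-5p at that length was 41.2-fold lower. Of 204 species with at least 10 such reads, 51.5% were more than 2-fold higher in Dicer -/- and 40.2% more than 2-fold lower.

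The end that each arm owes to Drosha and the end it owes to Dicer behaved differently. On the 5p arms the 5′ end, cut by Drosha, was at its commonest Dicer f/f position in 99.2% of miR-143-5p reads in Dicer -/- and 99.5% in Dicer f/f, and in 89.9% and 99.4% of miR-145a-5p reads. The 3′ end of miR-145a-5p, cut by Dicer, was at its commonest position in 18.8% of reads in Dicer -/- (14.9 to 23.3) and 66.7% in Dicer f/f. Among its 118 Dicer -/- reads of 18 to 23 nt the share was 56.8%, and over all lengths 28.9% lay within 1 nt of that end. For miR-143-5p that share was instead larger in Dicer -/-, at 74.5% (70.4 to 78.4) against 53.9% (52.6 to 55.2).

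On the 3p arms the 5′ end is the one cut by Dicer and carries the seed. It was at its commonest Dicer f/f position in 8 of 58 miR-143-3p reads (13.8%; 6.15 to 25.4) in Dicer -/- and in 98.4% in Dicer f/f. For miR-145a-3p it was in place in 7 of 74 reads (9.46%; 3.89 to 18.5) in Dicer -/- and in 68.1% in Dicer f/f. The 3′ end, cut by Drosha, was in place in 34.5% and 65.5% of miR-143-3p reads and in 39.2% and 58.9% of miR-145a-3p reads, again in Dicer -/- and then Dicer f/f. Within 1 nt of the usual end the share of miR-143-3p reads in Dicer -/- was 74.1% for the 3′ end and 31.0% for the 5′ end. For miR-145a-3p it was 41.9% for the 3′ end and 22.97% for the 5′ end. These shares use the split at the middle of the hairpin, which puts reads across the loop into 1 arm. With arms set by overlap with the commonest form, miR-143-3p had 47 and miR-145a-3p 55 Dicer -/- reads. At 18 to 23 nt the 5′ end was in place in 34.8% of miR-143-3p and 21.9% of miR-145a-3p reads in Dicer -/-.

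**Figure D4:**
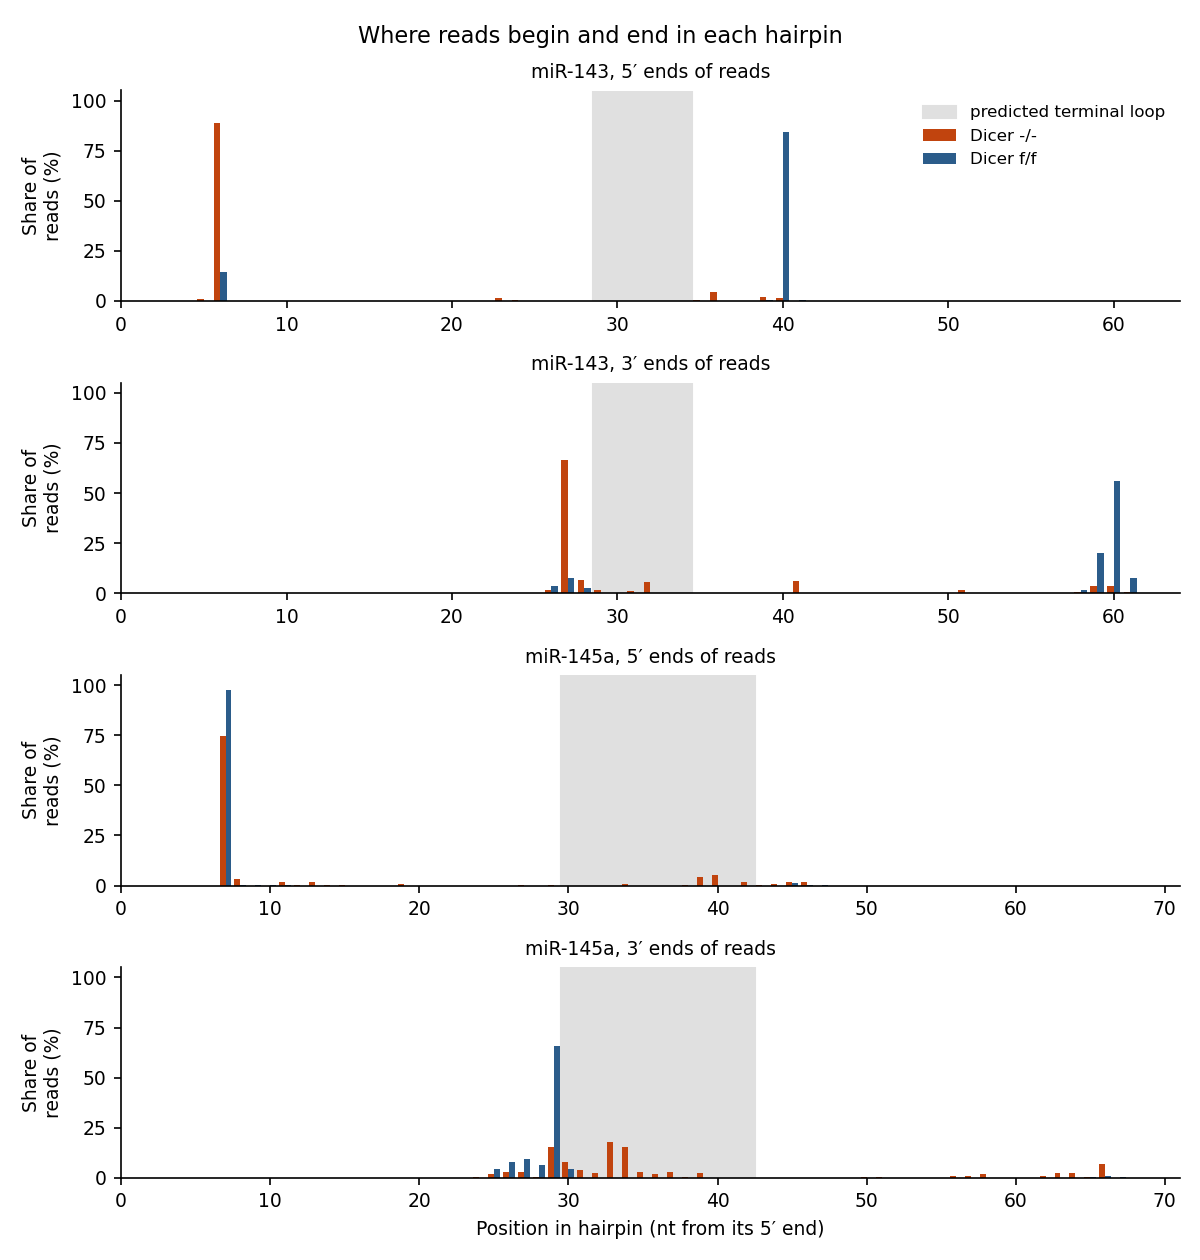
Position of the 5′ and 3′ ends of reads along the hairpins of Mir143 and Mir145a, in nt from the hairpin's 5′ end. Both libraries, Dicer -/- and Dicer f/f, are shown as percent of all reads of the hairpin, both arms together. The shaded stretch is the predicted terminal loop. In Mir145a, 70.5% of 5p reads end and 71.6% of 3p reads begin in the loop in Dicer -/-, against 4.34% and 0.0162% in Dicer f/f. These shares are of each arm's own reads, not bar heights.

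Other miRNAs give the frame for these shares. Among 58 other 5p arms with at least 1000 Dicer f/f reads and 20 Dicer -/- reads, the median share of Dicer -/- reads at the commonest Dicer f/f end was 96.5% for the 5′ end and 7.33% for the 3′ end, and 78.0% of reads were 24 nt or longer. Among 28 such 3p arms the medians were 19.3% for the 5′ end, 39.8% for the 3′ end and 41.2% for long reads. miR-143-5p differed from its class: its share at the 3′ end in Dicer -/- was higher than that of all 58 other 5p arms, and 2 of the 58 had a smaller share of long reads. miR-145a-5p had a higher 3′ share than 54 of the 58.

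The forms of miR-143-5p show what lay behind that share. The 22 nt form from 6 to 27 had 360 reads in Dicer -/- (74.5% of the arm) and 3107 in Dicer f/f (53.7%), 5.46-fold lower (4.89 to 6.11). The form 1 nt shorter had 10 reads against 1487, 94.1-fold lower (51.0 to 197), and the form 1 nt longer had 31 against 1102, 22.5-fold lower (15.8 to 33.3). The 3 forms share their 5′ end and seed, and their ratios differed by more than counting error.

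Of the longer miR-143-5p reads in Dicer -/-, all but 4, which began at position 5, began at the same base as the mature form. The 27 nt form from 6 to 32, which ends within the predicted loop, had 30 reads in Dicer -/- and 0 in Dicer f/f, at least 15.8-fold higher. The 36 nt form from 6 to 41, which crosses the loop, had 33 reads against 5, 10.4-fold higher (4.05 to 34.2). It has the longest length that was sequenced, so the RNA behind it may be longer. In all, 44 of 541 Mir143 reads (8.13%; 5.97 to 10.8) overlapped the commonest forms of both arms in Dicer -/-, against 5 of 40431 (0.0124%) in Dicer f/f.

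The mature forms of miR-143-3p had few reads in Dicer -/-. The 21 nt form from 40 to 60 had 1 read in Dicer -/- and 22362 in Dicer f/f, 14149-fold lower on that 1 read, with an interval from 2539 to 558861. The 20 nt form from 40 to 59 had 7 and 7883 reads (713-fold lower; 346 to 1773), and the 22 nt form from 40 to 61 had 0 and 3086, at least 651-fold lower. The leading form of the 5p arm, which pairs with the 21 nt form, had 360 Dicer -/- reads as given above.

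The commonest miR-143-3p form in Dicer -/- ran from 36 to 59 and had 12 reads, against 0 in Dicer f/f, at least 6.32-fold higher. A form from 39 to 60, which starts 1 nt before the usual 5′ end, had 10 reads against 145, 9.17-fold lower (4.85 to 19.5). A form from 23 to 51, which holds the whole predicted loop, had 8 reads against 0. In Dicer -/-, 24 of 58 reads (41.4%) began at 36, 4 nt before the usual start and just past the predicted loop.

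miR-145a-5p had its mature form and longer forms side by side in Dicer -/-. The 23 nt form from 7 to 29 had 66 reads in Dicer -/- and 237653 in Dicer f/f, 2278-fold lower (1791 to 2946). The 24 nt form from 7 to 30 had 33 and 15459 reads, 296-fold lower (211 to 431). The shorter forms of 20, 21 and 22 nt had 12, 12 and 2 reads in Dicer -/- and 28788, 34171 and 23551 in Dicer f/f.

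Among longer forms the direction varied. The 25 nt form from 7 to 31 had 12 reads in Dicer -/- and 27 in Dicer f/f, a ratio of 0.702 (0.324 to 1.43) that counting error cannot tell from 1. The 27 nt form from 7 to 33 had 72 reads in Dicer -/-, more than any other form of the arm, and 2 in Dicer f/f, 56.9-fold higher (15.2 to 479). The 28 nt form from 7 to 34 had 65 reads against 0, at least 34.2-fold higher. The 27 and 28 nt forms, with the mature form, made up most of the arm in Dicer -/-, and both end inside the predicted loop.

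miR-145a-3p in Dicer -/- began mostly 5 or 6 nt before its usual start. The mature 22 nt form from 45 to 66 had 5 reads in Dicer -/- and 3213 in Dicer f/f, 407-fold lower (174 to 1253). The forms from 40 to 66 and from 40 to 64 had 9 and 8 reads in Dicer -/- and none in Dicer f/f. In all, 19 of 74 reads began at 39 and 22 at 40, inside the predicted loop. The Dicer f/f 3p reads were themselves spread over starts at 45 (68.1%), 46 (14.2%) and 47 (16.6%), which shift the seed.

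Distinct forms were fewer in Dicer -/- than in Dicer f/f for each arm, at 10 and 16 for miR-143-5p, 15 and 25 for miR-143-3p, 29 and 39 for miR-145a-5p, and 21 and 26 for miR-145a-3p. The number of reads differed too, so these counts do not compare diversity. Reads that overlapped both arms of Mir145a numbered 4 of 430 (0.930%) in Dicer -/- and 50 of 364737 (0.0137%) in Dicer f/f. Reads lying wholly between the arms could not be seen in either library. That stretch is 12 nt in Mir143 and 15 nt in Mir145a, and only reads of 18 nt or more were used. In Dicer f/f, 49 miR-145a-3p reads began at 28, before the predicted loop, and 49 ended at 46, past it.

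Untemplated tails, bases added after the end of the transcript, were a main feature of miR-143-3p. A read counted as tailed when its first 18 nt or more matched and it ended 1 to 5 bases on, counted from the first mismatch. Reads that matched the hairpin again after 1 mismatched base were included. Sequencing errors can give such reads too. In Dicer -/- 33 of 91 miR-143-3p reads (36.3%; 26.4 to 47.0) were tailed, and in Dicer f/f 50453 of 85097 (59.3%; 59.0 to 59.6). A single U made up 14 of these reads in Dicer -/- and 39486 in Dicer f/f, where it stood on 46.4% of all miR-143-3p reads, and tails of 2 or more U numbered 3 and 7664. Of the 33 tailed Dicer -/- reads, 9 were a form from 16 to 50 with an added C, which had 6 reads in Dicer f/f. That form crosses the loop, does not reach the usual 3′ end and has the longest length sequenced, 36 nt. Uridine tails are known to be added by terminal uridylyltransferases.

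A tailed form led the arm in the Dicer f/f library. The form from 40 to 60 with 1 added U had 8 reads in Dicer -/- and 36895 in Dicer f/f, more in each than the same form without it, and with 2 added U it had 0 and 6554 reads. With tails counted, miR-143-3p had 91 reads (14.5 CPM) in Dicer -/- against 85097 (8558 CPM) in Dicer f/f, 592-fold lower (482 to 735). The Dicer f/f count was 2.46 times the one without tails.

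**Figure D5:**
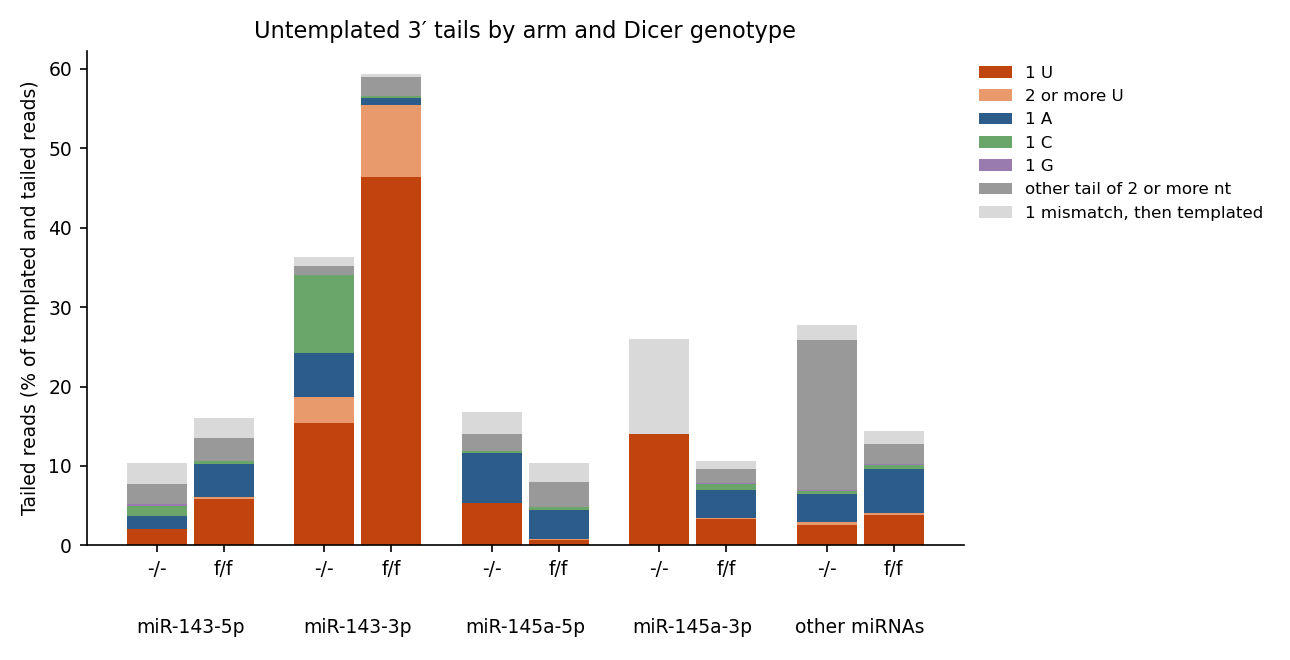
Percent of reads with an untemplated tail of 1 to 5 nt for each arm, split by kind of tail, in the Dicer -/- library and in the Dicer f/f library. Reads that match again after 1 mismatch are included as a kind of tail. miR-143-3p has 36.3% tailed reads in Dicer -/- and 59.3% in Dicer f/f, where a single U is the main kind.

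Among 56 other 3p arms of the Dicer f/f library with at least 1000 reads, the median tailed share was 18.4% and the median share with 1 U was 5.48%. Tailed shares above that of miR-143-3p were seen in 2 of the 56, miR-652-3p (85.9%) and miR-23b-3p (65.7%). In the other 3 arms of the cluster, tailed reads made up 10.4% of miR-143-5p in Dicer -/- and 16.1% in Dicer f/f, 16.8% and 10.4% of miR-145a-5p, and 26.0% and 10.6% of miR-145a-3p, against 27.7% and 14.4% over all other miRNAs. Of the 26 tailed miR-145a-3p reads in Dicer -/-, 12 matched the hairpin again after 1 mismatched base, and without these 14 of 88 reads (15.9%) were tailed. In the other miRNAs of Dicer -/-, 35226 of the 51857 tailed reads carried 2 or more bases that were not all U. On miR-145a-5p the commonest single-base tail was an A, with 27 reads in Dicer -/- and 14876 in Dicer f/f.

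With tails counted, Mir143 had 630 reads in Dicer -/- against 91993 in Dicer f/f (92.4-fold lower), where it was 47.3-fold lower without them. Mir145a had 528 against 406922 (488-fold lower), and 537-fold lower without them. The ratio of Mir143 to Mir145a reads was then 1.19 in Dicer -/- and 0.226 in Dicer f/f.

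Few reads came from Carmn, the long noncoding RNA that hosts the cluster in RefSeq. Its GENCODE transcripts, which end upstream of Mir143, had 1 fragment in Dicer -/- and 15 in Dicer f/f, 9.49-fold lower with an interval from 1.46 to 400. These were of 10 distinct sequences between 18 and 31 nt. The further RefSeq stretch that spans the hairpins was not counted. Bvht, the noncoding gene on the opposite strand beside the cluster, had 0 reads in both. At these counts a difference in the primary transcript could not be sized.

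Among miRNAs listed with smooth muscle, those with many Dicer f/f reads had the direction of the cluster. Of 23 listed hairpins 17 had at least 100 Dicer f/f reads, and all 17 were more than 2-fold lower in Dicer -/-. That minimum is set on the library where miRNAs are high, so it favours this direction. Of the hairpins left out, Mir133a-1 and Mir133a-2 (7 and 1 reads each) had more reads in Dicer -/-, and Mir10a (0 and 3) and Mir145b (0 and 6) had more in Dicer f/f. Mir143 and Mir145a are not on this list. The list held 32007 reads against 1715510, 33.9-fold lower. The share of all miRNA species past that fold was 89.8%.

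Fragments of mRNAs of smooth muscle contractile genes were no more frequent in Dicer -/- than those of other genes. Of 12 listed genes 6 had at least 10 reads, and 4 of these were more than 2-fold higher in Dicer -/- CPM, against 96.4% of 6430 genes with that many reads. None of the 6 was more than 2-fold lower, against 0.358% of the genes. The list had 158 reads in Dicer -/- and 53 in Dicer f/f and a median log2 ratio of 3.04, while all exons had 318200 and 104532 reads (4.81-fold higher) and a median over genes of 3.20. Per snoRNA and snRNA read the log2 ratio of the summed exon reads was 0.15, so the size of the list ratios rests on the denominator. Cald1, which encodes the actin-binding caldesmon, had 74 and 5 reads, and Smtn, which encodes smoothelin, 31 and 5. Acta2, smooth muscle α-actin, had 4 reads in Dicer -/- and 11 in Dicer f/f, and Cnn1, calponin, had 0 and 7.

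Of 19 gene symbols listed for the myocardin and SRF axis 10 had at least 10 reads, and 9 were more than 2-fold higher, against 96.4% of all genes. The list gives older and newer names of the same gene, such as Mkl1 and Mrtfa, as separate symbols. The list had 300 reads in Dicer -/- and 52 in Dicer f/f, and its median log2 ratio was 2.89, against 3.20 over all genes. Notch2, a receptor of the Notch pathway that also acts on the locus in smooth muscle, had 94 reads in Dicer -/- and 12 in Dicer f/f. Mrtfa, a coactivator of SRF, had 47 and 6, and Srf itself 11 and 0. Myocd, the coactivator named above, had 2 reads in Dicer -/- and 0 in Dicer f/f.

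Of 32 gene symbols listed as published targets of miR-143 or miR-145, 16 had at least 10 reads and all 16 were more than 2-fold higher in Dicer -/-. The list had 878 reads against 82, 16.9-fold higher (13.5 to 21.5), and a median log2 ratio of 3.83. Some symbols are older and newer names of the same gene, such as Ctgf and Ccn2. Klf4, Klf5, Elk1, Smad3, Tgfbr2 and Mrtfb are also on the list of the myocardin and SRF axis. Over all genes 96.4% were past that fold and the median was 3.20, so the count of 16 of 16 is near the share of all genes. Irs1, the insulin receptor substrate, had 195 and 14 reads, Fscn1, the actin-bundling fascin, 124 and 26, and Vcan, the matrix proteoglycan versican, 147 and 1. Klf4 had 12 and 2 reads, and Klf5 and Elk1 had 7 and 0 each. Mesenchymal marker mRNAs that are no members of the list gave a similar picture, with 7 of 7 genes more than 2-fold higher, 1692 reads against 149 and a median log2 ratio of 4.34. These are fragments in a library selected for short RNA, so they do not measure mRNA levels.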

How the data were processed

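The authors deposited raw counts: each of the 2 files lists the distinct read sequences of 1 library with the number of times each was seen (5 to 36 nt, 6291599 reads in Dicer -/- and 9943989 in Dicer f/f), without gene names or coordinates. Per the labels' protocols, small RNA was cut from a denaturing gel and cloned with the Illumina small RNA method. Per the submitters' processing notes the build was mm9, and the trimming tool and aligner were not given in the sources used here. Coordinates are annotation positions in GRCm38.

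Reads of 18 nt or more were matched in sense to GENCODE M21 transcripts without mismatch, and CPM computed over all reads. None of the 58 and 98 distinct sequences in Mir143 and Mir145a matched another transcript. Arms were split at the middle of the hairpin by the middle of the read, so reads across the loop go to 1 arm. Predicted folds came from RNAfold 2.7.2. Intervals are exact Clopper-Pearson for shares and exact conditional for ratios, and 0 reads were set to a floor of 3. Python 3.11.15 with numpy 2.4.6, scipy 1.17.1 and matplotlib 3.10.9 was used, and the matching and intervals were tested on simulated data.

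The members, lists and rules were chosen with earlier results of these data known. Named were all arms, forms with at least 1% of their arm (a selection is printed), the 3 nearest species per arm, 4 abundant mesenchymal miRNAs, clustered pairs by their difference, and listed genes by read number or as known regulators. Genes with fewer than 10 reads, Carmn, Bvht, Dicer1 and the species with higher tailed shares were named after their values were seen. Fragments count for a gene only if they matched no other gene. Alternatives changed the denominator, the length window, the minimum copy number, tails, the arm rule, the end tolerance and the species minimum.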

Additional observations from a re-analysis of the deposited data

How the results depend on the processing

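All 4 arms stayed lower in Dicer -/- under every alternative run except 24 nt and longer, where the log2 ratio of Dicer -/- over Dicer f/f was 1.59 for miR-143-5p and the 3p arms, with 0 Dicer f/f reads, gave no ratio and were higher in Dicer -/-. The sizes depend on the denominator. In the order miR-143-5p, miR-143-3p, miR-145a-5p and miR-145a-3p, the log2 ratios were −1.17, −6.81, −7.56 and −3.97 per read matching a transcript, −5.04, −10.68, −11.44 and −7.84 per snoRNA and snRNA read, −1.99, −7.63, −8.39 and −4.79 per read of at most 23 nt, and −3.18, −9.90, −10.85 and −6.93 at 18 to 23 nt. miR-145a-5p was at −5.36 at 24 nt and longer, miR-143-3p at −9.21 with tailed reads, and miR-145a-3p at −6.14 with arms set by overlap with the commonest form. The log2 ratio of Mir143 to Mir145a reads at 18 to 23 nt was 1.50 in Dicer -/- and −3.11 in Dicer f/f, and with tails −2.15 in Dicer f/f.

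In Dicer -/-, reads of 25 nt or longer made up 17.0% of Mir143 and 55.1% of Mir145a. The usual 5′ end was met within 1 nt in 31.0% of miR-143-3p and 93.8% of miR-145a-5p reads, and in 34.8% of the 23 miR-143-3p reads of 18 to 23 nt. Tails of 1 nt stood on 9.38% of Mir143 reads in Dicer -/- and 50.5% in Dicer f/f, and on 13.1% and 5.15% of Mir145a reads. Without reads that match again after 1 mismatch, an alternative chosen after seeing the data, 14.7% of Mir145a reads in Dicer -/- and 8.23% in Dicer f/f were tailed, and with 20 templated nt 9.92% in Dicer f/f. At 1000 Dicer f/f reads, 151 of 157 species were more than 2-fold lower. Per snoRNA and snRNA read the log2 ratios were 0.12 for contractile genes, 1.07 for the myocardin and SRF axis and 1.96 for targets, which were at 4.50 at 24 nt and longer. Apart from these denominators and windows, the cause of these differences was not tested.

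No paired analysis was possible because each genotype had 1 library, and for the same reason no replicate could be left out. The 58 and 74 Dicer -/- reads of the 3p arms limit what can be said of their forms, and single forms rest on few sequences whose PCR copies cannot be counted.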

Other observations

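Mir145b, annotated elsewhere on chromosome 18 (69022199 to 69022273, minus strand, GRCm38), had 0 reads in Dicer -/- and 6 in Dicer f/f. Reads antisense to Mir145a numbered 3 in Dicer -/- and 0 in Dicer f/f, and there were 0 antisense to Mir143 in both.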
